A study of Mus musculus with 36 samples.

Results

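Sox2 binding in mouse embryonic stem cells that had spent 3 passages in 2i medium was compared with Sox2 binding in the same cells kept in serum medium. The comparison rests on 3 of the 36 samples of the series, 1 after 3 passages of 2i and 2 in serum. All 3 are KH2 cells, an established mouse embryonic stem cell line, and all were precipitated with 1 lot of a Sox2 antibody, lot K2513. The 3 passage cells grew in 2i with LIF. The serum cells grew in medium with fetal bovine serum and LIF. The growth protocol, which is the same for all samples, describes maintenance on a feeder layer of irradiated CF1 mouse embryonic fibroblasts, and the labels do not tell whether feeder cells were present in either medium at harvest. The labels give the molecule of these Sox2 libraries as total RNA, but name an antibody for each and give it a peak file, so they were read here as chromatin immunoprecipitation libraries (ChIP-seq). Each condition has 1 list of peaks, so the spread between replicates is unknown and no test between the media was made. The labelled cell type was not checked against marker genes, because the RNA libraries were not analysed here.

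Sox2 is a DNA-binding protein of the HMG-box family that keeps embryonic stem cells pluripotent. It often binds beside Oct4, a POU-domain factor, on a composite site, and many of its sites are also bound by Nanog, a homeodomain protein of the same network. Most such sites lie away from promoters and act as enhancers. H3K4me3, trimethylation of lysine 4 on histone H3, marks mainly active promoters, and a Sox2 peak that overlaps it therefore lies in or near a promoter in most cases. 2i holds 2 kinase inhibitors, one of MEK and one of GSK3, and brings the cells close to the naive ground state.

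On chromosomes 1 to 19 the 3 passage list held 8480 Sox2 peaks and the serum list 12712. Peaks were 533 bp wide in the median at 3 passages and 545 bp in serum. Each peak carries the authors' fold enrichment over a control and their −log10 q, where q is the false discovery rate of the peak. Fold enrichment had a median of 6.63 at 3 passages and 9.71 in serum, and its highest value was 55.2 at 3 passages and 68.9 in serum. The lowest −log10 q was 7.52 at 3 passages and 17.3 in serum, so the 2 lists do not end at one threshold. The lists hold no read counts, and read depth is unknown.

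Peaks of both lists that overlapped by at least 1 bp were merged, which gave 14740 Sox2 regions. With the lists as deposited, 2048 regions were called only at 3 passages, or 13.9% of all regions, and 6282 were called only in serum, or 42.6%. Both lists called the other 6410 regions. Seen from each list, 75.8% of the 3 passage regions (95% exact binomial interval 74.9 to 76.7) and 50.5% of the serum regions (49.6 to 51.4) were shared. Such intervals, here and below, cover counting error only, since regions are not replicates. When the serum list was reduced to its 8480 peaks with the highest −log10 q, 3047 of 11514 regions were called only at 3 passages, or 26.5%, and 3054 only in serum, also 26.5%, with 5413 in both. Equal list length brings the 2 sides close together by construction. The last serum peak kept and the first left out both had a −log10 q of 27.7. With both lists limited to the lowest serum −log10 q, 384 regions were called only at 3 passages and 9009 only in serum. The number on each side therefore moved by more than 1.5 times with the way the lists were limited, and −log10 q need not be on one scale in both lists. By the labels the serum list stands for 2 samples and the 3 passage list for 1. In list length and in unshared counts, medium and number of samples therefore cannot be told apart.

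**Figure D1:**
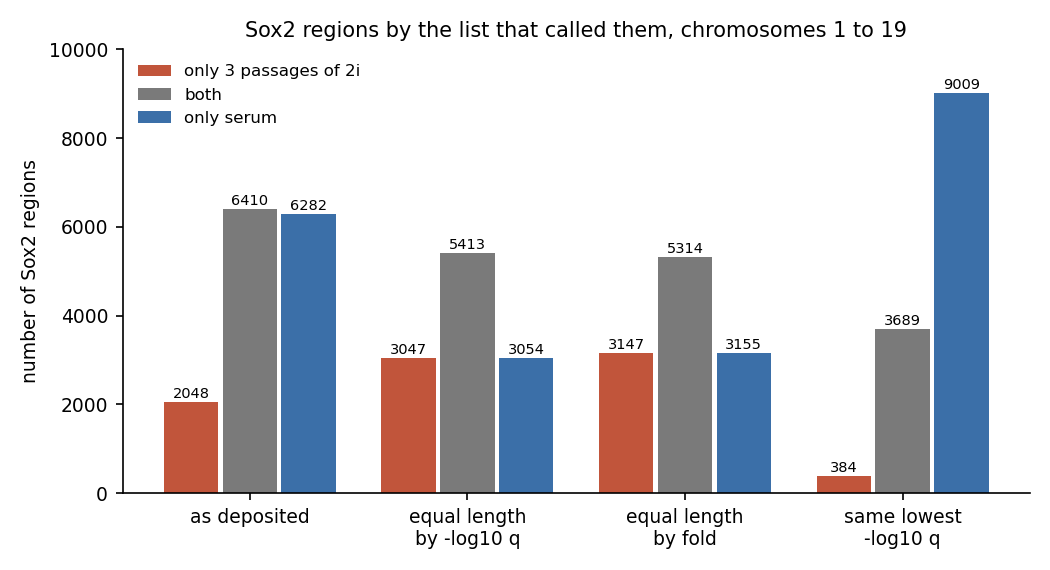
Number of Sox2 regions (y axis) called only at 3 passages of 2i, in both lists, or only in serum, under 4 ways of limiting the lists (x axis). The count for 3 passages alone runs from 384 to 3147 and that for serum alone from 3054 to 9009, while the shared count runs from 3689 to 6410.

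The strongest Sox2 sites were shared, and sharing fell off with strength in both lists. Of the 1000 peaks with the highest −log10 q, 982 of the 3 passage list met a serum peak, and 983 of the serum list met a 3 passage peak. Lists were next cut into 10 equal parts by −log10 q. In the 3 passage list 98.7% (97.7 to 99.4) of the strongest part and 50.1% (46.7 to 53.5) of the weakest part met a serum peak. In the serum list 97.6% (96.6 to 98.3) of the strongest part and 17.5% (15.5 to 19.7) of the weakest part met a 3 passage peak. The steeper fall in the serum list stands beside the shorter length of the 3 passage list. Regions called only at 3 passages had a median fold of 5.80 (middle 50% from 5.08 to 6.91), against 7.16 (5.58 to 10.2) for shared regions in the same list. Regions called only in serum had a median fold of 8.17 (6.77 to 10.2), against 12.7 (9.07 to 18.3) for shared regions in the serum list. Both kinds of unshared region thus had lower folds than the shared regions of their own list.

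**Figure D2:**
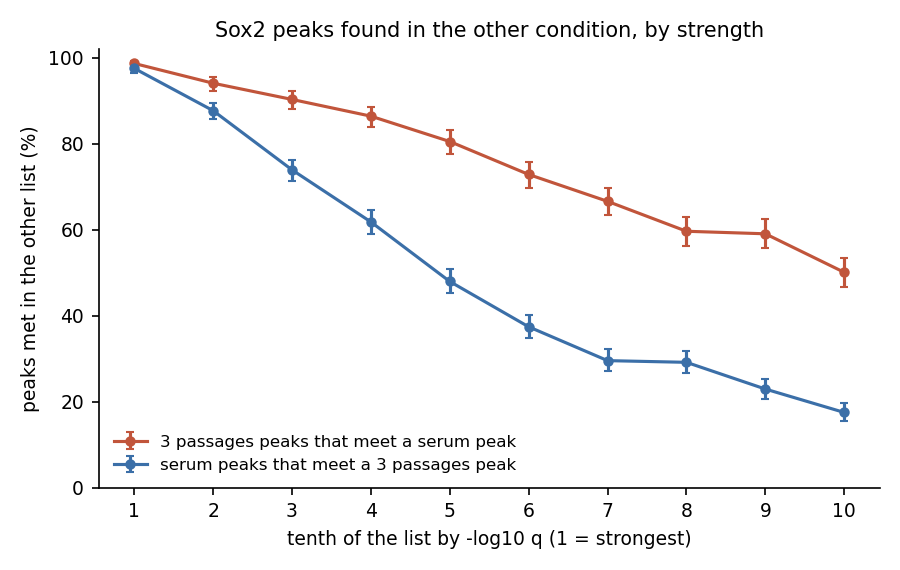
Share of Sox2 peaks that overlap a peak of the other list (y axis, percent, bars give 95% exact binomial intervals) in 10 equal parts of each list from strongest to weakest by −log10 q (x axis). Both curves start above 97%, and they end at 50.1% for the 3 passage list and 17.5% for the serum list.

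Few unshared regions lay beside a peak of the other list. From the summit of a region called only at 3 passages, the nearest serum Sox2 peak was 40.9 kb away in the median, and 1.90% (1.36 to 2.59) had one within 1 kb. From the summit of a region called only in serum, the nearest 3 passage Sox2 peak was 70.2 kb away in the median, and 1.86% (1.54 to 2.23) had one within 1 kb. The 2 medians are not on one footing, since the serum list holds 12712 peaks and the 3 passage list 8480. Where both lists called a region, the summits lay 26 bp apart in the median, and 94.7% lay within 100 bp of each other. Sox2 was thus mapped to almost the same point in both media at the shared regions.

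From each side 5 regions are described by position in the mouse build mm9, counted from 1, taking those with the highest fold in their own list. The list of the 3 passage cells placed a region on chromosome 9 from 3037786 to 3038452 first, with a fold of 19.4. It held no Sox2 peak at 24 h and no Nanog peak at 3 passages or in serum, but a Nanog peak at 24 h with a fold of 15.5, and it lies at the start of the assembled chromosome. Next was chromosome 17 from 35700480 to 35701310, where a region had a Sox2 fold of 19.1 and carried Nanog in both media, with a fold of 55.8 in the 3 passage list and 11.1 in the serum list. It also held an H3K4me3 peak at 3 passages, with a fold of 16.2, and none in serum. On the same chromosome, the region from 57642594 to 57643177 had a Sox2 fold of 18.0 and held Oct4 in both of its lists, with a fold of 129.1 at 24 h of 2i and 20.2 in serum. A pair of regions on chromosome 11 completed the group, from 113300741 to 113301580 with a Sox2 fold of 17.6 and from 86669616 to 86670356 with a fold of 17.0. Leaving aside the region at the start of chromosome 9, the other 4 were all called for Sox2 at 24 h of 2i and for Nanog in both media. The 24 h Sox2 list is longer, with 14703 peaks on chromosomes 1 to 19. Its lowest −log10 q was 3.69, under that of both lists compared here.

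The leading serum-only regions had higher folds in their own list than the leading 3 passage regions had in theirs. First came chromosome 8 from 116407762 to 116408363, where a region had a Sox2 fold of 51.3 in serum. Its Nanog fold was 10.3 in the 3 passage list and 70.4 in the serum list. On chromosome 2, from 136336687 to 136337411, a region had a Sox2 fold of 41.3, a Nanog fold of 23.8 at 3 passages and 95.1 in serum, and an Oct4 peak in serum with a fold of 21.2 but none at 24 h. Of the rest, that on chromosome 13 from 108745356 to 108745795 had a Sox2 fold of 30.5. Another on chromosome 2, from 79425471 to 79426138, and one on chromosome 10, from 84218338 to 84219336, both had a fold of 29.3. All 5 also held a Sox2 peak at 24 h of 2i, with folds in that list from 4.42 to 12.0, and all 5 held Nanog in serum. Nanog was called at 3 passages in 4 of them, the exception being the region on chromosome 10, which also held the H3K4me3 peak of serum (fold 6.72) and lacked one at 3 passages.

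Nanog of the matching condition was found at most unshared Sox2 regions. A Nanog peak of 3 passages overlapped 87.2% (85.7 to 88.6) of the regions called only at 3 passages, against 93.1% (92.5 to 93.7) of the shared regions. A Nanog peak of serum overlapped 75.6% (74.5 to 76.7) of the regions called only in serum, against 91.7% (91.0 to 92.4) of the shared regions. Over all 14740 Sox2 regions, Nanog of 3 passages was at 78.3% and Nanog of serum at 79.8%. The share at serum-only regions was thus under that of all regions, and the share at 3 passage-only regions above it. At equal Sox2 list length the shares were 88.3% (87.1 to 89.4) at regions of 3 passages alone and 83.9% (82.6 to 85.2) at regions of serum alone. The Nanog lists held 32094 peaks at 3 passages and 24649 in serum on the same chromosomes. Sox2 and Nanog lay close together at these regions. From the Sox2 summit to the nearest Nanog summit the median was 35 bp at regions of 3 passages alone and 29 bp at regions of serum alone, and 32 bp and 24 bp at shared regions with the lists of 3 passages and of serum.

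At many of the regions where Sox2 was called in 1 medium, Nanog was called in both. Among the 2048 regions with Sox2 only at 3 passages, 1103 had Nanog in both media, 683 had it only at 3 passages, 24 only in serum and 238 in neither. Nanog thus differed between the media in the same direction as Sox2 at 33.3% of these regions (31.3 to 35.4), and in the opposite direction at 1.17% (0.752 to 1.74). Among the 6282 regions with Sox2 only in serum, 3596 had Nanog in both media, 196 had it only at 3 passages, 1155 only in serum and 1335 in neither. Here Nanog differed in the same direction as Sox2 at 18.4% (17.4 to 19.4) and in the opposite direction at 3.12% (2.70 to 3.58). The shared Sox2 regions serve as a background, with Nanog only at 3 passages at 3.34% and only in serum at 1.95%. This background is not matched for strength, since Nanog peaks at shared regions stood higher in their lists than those at unshared regions. The Nanog list of 3 passages was also the longer, with 32094 peaks against 24649 in serum. What part strength and list length play in these shares was not tested. At equal Sox2 list length, same-direction Nanog was found at 25.6% of the regions with Sox2 only at 3 passages and at 17.7% of those with Sox2 only in serum.

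Unshared regions also differed in how strong their Nanog peaks were. Regions with Sox2 only at 3 passages held 3 passage Nanog peaks with a median fold of 15.7 and serum Nanog peaks, where called, with a median fold of 11.5. In the median these Nanog peaks stood at percentile 78.1 of the 3 passage Nanog list and 46.1 of the serum Nanog list, by −log10 q. Regions with Sox2 only in serum held 3 passage Nanog peaks at percentile 58.2 and serum Nanog peaks at percentile 66.9 in the median. Shared Sox2 regions stood at percentile 87.3 for Nanog at 3 passages and 83.3 for Nanog in serum. Percentiles from lists of different length do not measure a change, and these are given to place each set within its list.

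H3K4me3 was unevenly spread over the unshared regions. An H3K4me3 peak of 3 passages overlapped 6.93% (5.87 to 8.12) of the regions called only at 3 passages and 12.0% (11.2 to 12.8) of the shared regions. An H3K4me3 peak of serum overlapped 18.1% (17.1 to 19.1) of the regions called only in serum and 9.88% (9.16 to 10.6) of the shared regions. Over all Sox2 regions, H3K4me3 of 3 passages was at 13.3% and H3K4me3 of serum at 12.6%. Most of the H3K4me3 at serum-only Sox2 regions was present in both media. Of these regions 946 had the mark in both, 97 only at 3 passages and 190 (3.02%) only in serum. The mark itself was thus called in both media at most promoter-like regions where Sox2 was called only in serum. Of the regions with Sox2 only at 3 passages, 72 had the mark in both media, 70 (3.42%) only at 3 passages and 11 only in serum. The shared Sox2 regions serve as a background, with the mark only at 3 passages at 4.12% and only in serum at 1.98%. The mark of 3 passages alone was thus no more frequent at regions with Sox2 only at 3 passages than at shared regions. On the other side, the mark of serum alone was more frequent at serum-only regions, 3.02% (2.61 to 3.48), than at shared regions, 1.98% (1.65 to 2.35).

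Serum-only Sox2 regions with H3K4me3 differed from the rest in 2 ways. Serum Nanog was called at 50.3% (47.3 to 53.2) of the 1136 regions with the mark and at 81.2% (80.1 to 82.3) of the 5146 without it. At regions with Sox2 only at 3 passages the corresponding shares for 3 passage Nanog were 83.8% (76.7 to 89.4) of 142 regions with the mark and 87.5% (85.9 to 88.9) of 1906 without it. The Sox2 peaks of the serum-only regions with the mark also had a lower fold, 6.93 in the median against 8.44 without it, at a like −log10 q of 26.1 and 27.6. The H3K4me3 share at equal list length differed with the measure by which peaks were kept, and whether the lower fold plays a part was not tested. At equal length by −log10 q it was 7.35% for 3 passages alone and 16.9% for serum alone, and at equal length by fold enrichment it was 8.61% and 10.5%. Under equal length by fold the interval of serum H3K4me3 was 9.41 to 11.6% at serum-only regions and 9.22 to 10.8% at shared regions, so the intervals overlapped.

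Since unshared regions were weak, the same shares were taken within 4 equal parts of each Sox2 list by −log10 q. Strength still differed within a part. In the strongest part of the serum list the median fold was 16.5 at unshared and 19.1 at shared regions. In the weakest part of the 3 passage list it was 5.17 and 4.84. In the 3 passage list Nanog overlapped 94.8% (88.4 to 98.3) of the unshared and 98.0% (97.3 to 98.5) of the shared regions in the strongest part, and 81.6% (79.0 to 84.0) and 85.2% (83.0 to 87.2) in the weakest part. In the serum list the strongest part had Nanog at 93.8% (90.7 to 96.1) of the unshared and 96.5% (95.7 to 97.1) of the shared regions, and the weakest part at 65.6% (63.7 to 67.5) and 81.6% (78.5 to 84.4). For Nanog the intervals of unshared and shared regions overlapped in each of the 4 parts of the 3 passage list. In the serum list they overlapped in the strongest part and lay apart in the other 3, with 86.8% (84.8 to 88.5) of unshared and 91.6% (90.2 to 92.8) of shared regions in the part after the strongest. H3K4me3 of serum overlapped 19.8% (18.3 to 21.4) of the unshared and 5.04% (3.54 to 6.94) of the shared regions in the weakest part of the serum list, and 13.2% (9.82 to 17.3) and 11.9% (10.7 to 13.1) in the strongest part. The 2 kinds of serum region thus moved apart in H3K4me3 as the −log10 q of Sox2 fell. Whether they also move apart as fold enrichment falls was not tested, since no parts were made by fold. With the lists at equal length by fold, their H3K4me3 intervals overlapped, as given above. In the 3 passage list H3K4me3 of 3 passages was less frequent at unshared regions in all 4 parts. The intervals overlapped in the 2 stronger parts and lay apart in the 2 weaker ones, with 7.66% (6.04 to 9.55) of unshared and 12.0% (10.2 to 14.0) of shared regions in the weakest.

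**Figure D3:**
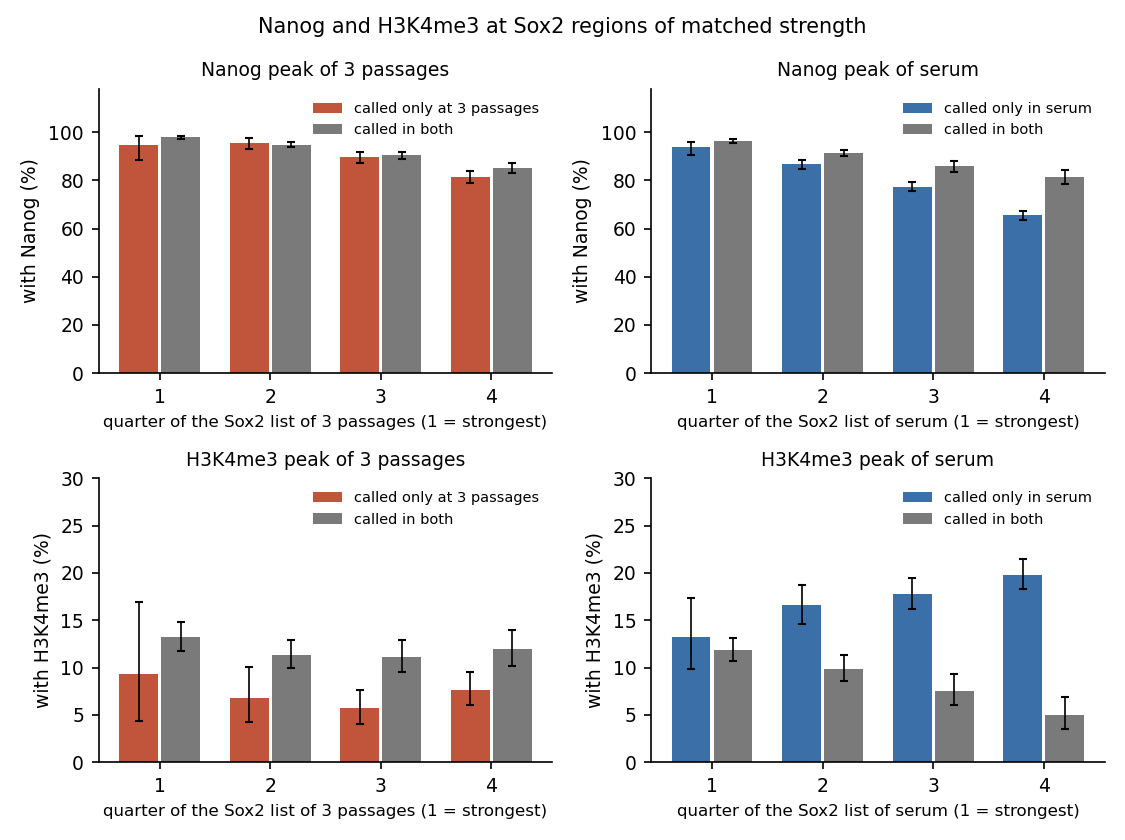
Share of Sox2 regions that overlap a Nanog peak (upper row) or an H3K4me3 peak (lower row) of the same medium (y axes, percent, bars give 95% exact binomial intervals), in 4 equal parts of the 3 passage list (left) and the serum list (right) by −log10 q (x axes). Coloured bars are regions called in 1 list and grey bars shared regions. In the weakest part of the serum list H3K4me3 stands at 19.8% of unshared and 5.04% of shared regions.

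Within the 6410 shared regions, Sox2 strength was compared through ranks. Regions were ranked by −log10 q in each list among the shared regions alone, so that both rankings have the same length, and ranks were written as percentiles with 100 as the strongest. Spearman's rho between the 2 rankings was 0.57, a description over regions that come from 1 list per medium. The rank of a region moved by 15.8 percentile points in the median, up or down. It rose by over 25 points at 3 passages in 1062 regions (16.6%) and fell by over 25 points in 1039 (16.2%), while 2307 (36.0%) stayed within 10 points. Near-equal numbers of rises and falls are favoured by ranking both lists over the same regions. How much of this movement would be seen between 2 replicates of 1 medium was not measurable from these lists. By fold enrichment the share moved by over 25 points was 33.1%, against 32.8% by −log10 q.

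**Figure D4:**
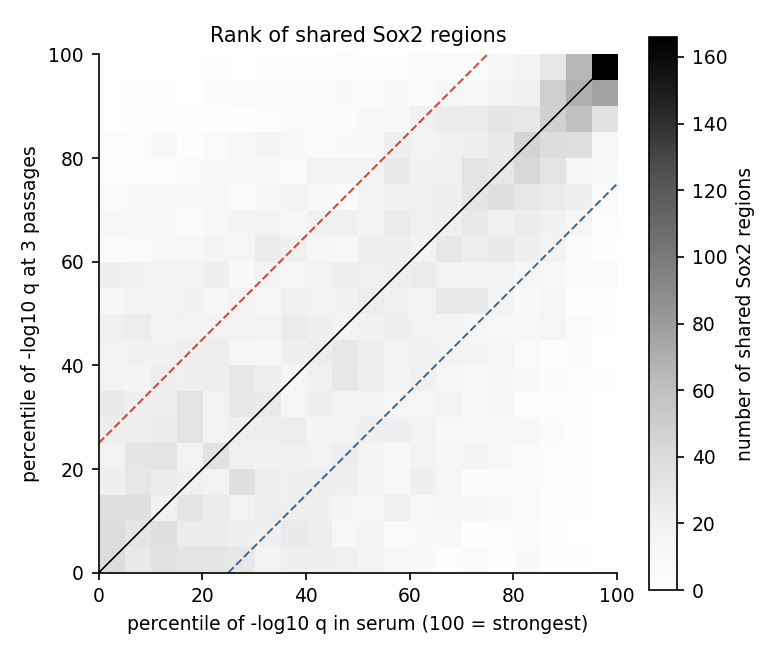
Percentile of each shared Sox2 region by −log10 q in serum (x axis) and at 3 passages (y axis), with grey giving the number of regions per cell of 5 by 5 points. Regions crowd along the diagonal at the strong end, and 1062 lie above the upper dashed line (a rise of over 25 points) and 1039 below the lower one (a fall of over 25 points).

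The top 5% of the ranking held 321 shared regions at 3 passages and 320 in serum, and 166 regions were in both. The 5 regions with the lowest sum of both ranks are named here, a choice that by itself takes regions ranked high in both lists. Chromosome 3 held, from 121848107 to 121849043, the region that ranked 1 in both lists, with a Sox2 fold of 50.9 at 3 passages and 43.8 in serum. On chromosome 9, that from 120058270 to 120059233 ranked 5 at 3 passages and 9 in serum, and it was the one of the 5 leading shared regions with H3K4me3, called in both media. On chromosome 3, the region from 108236232 to 108237191 ranked 18 at 3 passages and 7 in serum. The other leading regions lay on chromosome 1 from 136431484 to 136432232, ranked 10 and 16, and on chromosome 9 from 102107674 to 102108453, ranked 2 and 25, with the 3 passage rank first. All 5 held Nanog in both media, Sox2 at 24 h and Oct4 in both of its lists.

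The 5 largest rises necessarily start near the weak end of the serum ranking. On chromosome 3 from 120546231 to 120547108, Sox2 stood at percentile 93.9 at 3 passages and 5.87 in serum. Nanog at that region stood at percentile 96.1 at 3 passages and 8.14 in serum, ranked among the shared Sox2 regions with Nanog in both lists. On chromosome 15, the region from 6578525 to 6579502 rose by 87.4 points for Sox2, and its Nanog, already at percentile 84.1 in serum, by 13.5 points. On chromosome 6, the region from 7644133 to 7644887 rose by 84.5 points and held H3K4me3 at 3 passages (fold 27.1) but not in serum. The 2 others were on chromosome 5 from 96737481 to 96738282, with a rise of 83.0 points, and on chromosome 17 from 28956955 to 28957525, with a rise of 82.5 points. The Nanog rank was higher at 3 passages at all 5 regions, by 13.5 to 88.0 points.

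The 5 largest falls likewise necessarily concern regions from the strong end of the serum ranking that lay near the lowest −log10 q of the 3 passage list. On chromosome 3 from 141511992 to 141512588, Sox2 stood at percentile 0.242 at 3 passages and 90.5 in serum, with a fold of 4.77 in the 3 passage list and 30.7 in the serum list. It was also the one of the 5 without a Sox2 peak at 24 h. Next was the region on the same chromosome from 95888138 to 95888834, at percentile 4.07 at 3 passages and 91.7 in serum. That on chromosome 19 from 5530022 to 5530815 stood at 2.29 and 88.7, that on chromosome 1 from 103524965 to 103525521 at 0.242 and 84.9, and that on chromosome 4 from 66247115 to 66247776 at 2.73 and 86.7, with 3 passages given first. Nanog fell in rank at all 5, with changes from -70.9 to -18.4 points, and none of the 5 held H3K4me3 in either medium.

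Over all shared regions, Nanog ranks moved with Sox2 ranks. Nanog was called in both media at 5755 of the shared Sox2 regions, and there its own rank rose by over 25 points in 769 (13.4%) and fell by over 25 points in 698 (12.1%). Where Sox2 rose by over 25 points, 440 of 959 such regions also had a Nanog rise of over 25 points and 6 a fall, and the median Nanog change was 22.9 points. Where Sox2 fell by over 25 points, 8 of 926 had a Nanog rise of over 25 points and 397 a fall, and the median Nanog change was -21.0 points. At the regions where Sox2 stayed within 10 points, the median Nanog change was -1.54 points. Spearman's rho between the 2 rank changes was 0.64 over the 5755 regions. The points share the regions. The labels hold 1 library with no antibody, of serum cells, and the peak names mention a control without saying which, so the lists may share it. Its part in the relation was not tested, and no pair of lists of 1 medium was at hand to show the relation where the medium does not change.

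This relation was seen in strong and weak regions. Among the shared regions in the upper 50% by mean Sox2 percentile, the median Nanog change was 22.4 points where Sox2 rose by over 25 points and -25.8 points where it fell by as much. In the lower 50% the medians were 23.3 and -18.1 points. H3K4me3 followed less. It was called in both media at 506 shared Sox2 regions, and the rho between its rank change and that of Sox2 was 0.23. Its median change was 1.78 points at 41 regions where Sox2 rose and -4.74 points at 120 where Sox2 fell. The difference between the 2 relations was not tested.

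**Figure D5:**
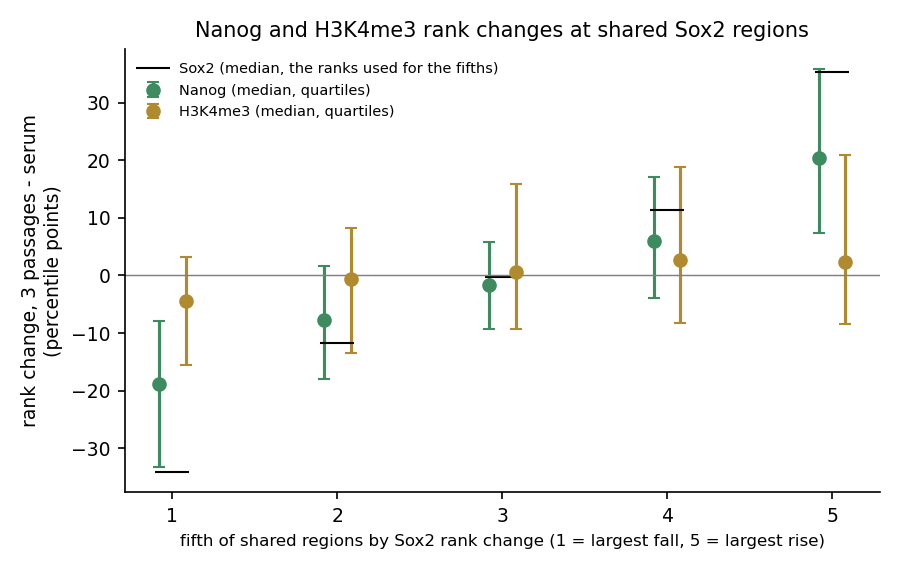
Rank change of Nanog and H3K4me3 (y axis, 3 passages minus serum, percentile points, points are medians and bars the middle 50% of regions) in 5 equal groups of shared regions ordered by Sox2 rank change (x axis, black dashes give the Sox2 medians that define the order). Median Nanog changes run from -18.8 to 20.4 points and those of H3K4me3 from -4.45 to 2.77 points.

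Presence of H3K4me3 nevertheless differed along the Sox2 ranking. Serum H3K4me3 overlapped 4.71% (3.51 to 6.16) of the regions where Sox2 rose by over 25 points, 9.97% (8.78 to 11.3) of those within 10 points and 15.5% (13.3 to 17.8) of those where Sox2 fell by over 25 points. H3K4me3 of 3 passages overlapped 8.66% (7.04 to 10.5), 13.0% (11.7 to 14.4) and 14.0% (11.9 to 16.2) of the same groups. These groups were built by −log10 q alone. They also differed in serum Sox2 strength, with median serum percentiles of 20.6 where Sox2 rose, 62.3 within 10 points and 64.3 where it fell. Among shared regions, serum H3K4me3 went from 11.9% in the strongest to 5.04% in the weakest of 4 equal parts of the serum list. How far serum strength accounts for the H3K4me3 shares of the groups was not tested. Among the regions called in 1 list, serum H3K4me3 was at 4.05% of those of 3 passages alone and 18.1% of those of serum alone as deposited, but at 5.62% and 10.5% at equal length by fold enrichment. Nanog of 3 passages was called at 96.7% (95.4 to 97.7) of the regions where Sox2 rose and 89.7% (87.7 to 91.5) of those where it fell, and Nanog of serum at 90.7% (88.8 to 92.4) and 93.3% (91.6 to 94.7).

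Sox2 at 24 h of 2i and Oct4 were read at the same regions as further measures. The 24 h Sox2 list held 14703 peaks, with a lowest −log10 q of 3.69 against 7.52 at 3 passages and 17.3 in serum. A call at 24 h is therefore not on one footing with a call in the other 2 lists. A Sox2 peak of 24 h overlapped 60.2% (58.0 to 62.3) of the regions called only at 3 passages, 91.6% (90.9 to 92.2) of the shared regions and 39.6% (38.4 to 40.8) of the regions called only in serum. Over all Sox2 regions the share was 65.1%. Of the 3 passage-only regions, 92.9% (91.3 to 94.2) of the 1233 called at 24 h and 78.7% (75.7 to 81.4) of the 815 not called at 24 h held Nanog of 3 passages. Serum-only regions called at 24 h held serum Nanog at 84.3% (82.8 to 85.7) of 2486, and those not called at 69.9% (68.5 to 71.4) of 3796. Oct4 has a list for serum and for 24 h of 2i, each from 1 sample. On chromosomes 1 to 19 the 24 h list is the longer, with 7533 peaks against 4844, so shares are not on one footing between them. The 24 h list met 30.2% (28.2 to 32.3) of the regions of 3 passages alone and 16.7% (15.7 to 17.6) of those of serum alone, while the serum list met 9.81% (8.56 to 11.2) and 14.1% (13.3 to 15.0). At shared regions Oct4 was called at 57.0% by the 24 h list and 45.3% by the serum list. Over all Sox2 regions these shares were 36.1% and 27.1%. The 24 h list thus met more of the regions of 3 passages alone, and the serum list more of those of serum alone.

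The size of the Sox2 difference was set beside other pairs of lists, each list cut to its 8480 strongest peaks. Sox2 at 3 passages and in serum shared 47.0% of their regions (46.1 to 47.9). Nanog at 3 passages and in serum shared 46.4% (45.5 to 47.3), H3K4me3 of the same media 77.1% (76.2 to 77.9), and Sox2 at 3 passages and at 24 h 53.7% (52.8 to 54.7). Sox2 at 24 h and in serum shared 46.9% (46.0 to 47.9), close to the share for 3 passages and serum. The share of ranks that moved by over 25 points among shared regions was 32.9% for Sox2 and 36.2% for Nanog between 3 passages and serum, 26.0% for H3K4me3, and 25.8% for Sox2 between 3 passages and 24 h. Between 24 h and serum it was 33.3% for Sox2. At this cut Sox2 and Nanog were about equally different between the 2 media by these measures, and H3K4me3 was more alike. The cut keeps the whole Sox2 list of 3 passages, but only the strongest of 12712 Sox2 peaks in serum and of 14703 at 24 h. It likewise keeps only the strongest of 32094 and 24649 Nanog peaks and of 18388 and 18725 H3K4me3 peaks, 3 passages first. Sharing fell off with strength in the Sox2 lists of 3 passages and serum, so the measures do not compare equal parts of the lists. The shares come from 1 list each and were not tested.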

How the data were processed

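ChIP-seq peak lists were used as deposited by the authors. Per the submitters' processing notes, BWA 0.5.7, Bowtie 0.12.7, MACS2 and the build mm9 were used. They do not say which aligner served which list. Per the deposited lists, the names of the peaks mention pooled replicates and a control, although the labels hold 1 sample for Sox2 at 3 passages. The authors give each peak a fold enrichment, which is a ratio over the control, a −log10 q, and the offset of its summit. How peaks were selected for the lists is not stated in the labels. Of the 14 deposited lists 10 were used. Here peaks were merged at 1 bp overlap on chromosomes 1 to 19, and a region took the values of its peak with the highest −log10 q. Intervals are exact binomial (Clopper-Pearson) at 95%. The code was checked on simulated peak lists. Python 3.11.15, NumPy 2.4.6, pandas 2.3.3 and SciPy 1.17.1 were used.

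The regions named are, by rule, the 5 with the highest fold on each side, the 5 shared regions with the largest rise, the largest fall and the lowest sum of ranks, and the 2 on each side with H3K4me3 and the highest fold. Regions and rules were chosen with earlier results of these data known. No mm9 annotation or genome was used, so regions carry no gene names and no sequence is printed. Alternatives are in the closing section.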

Additional observations from a re-analysis of the deposited data

How the results depend on the processing

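With 55 alternatives computed for 8 results, 39 stayed within 1.5 times the count or inside the interval of the reported value. The share of shared regions whose rank moved by over 25 points stayed inside its interval (31.6 to 33.9%), between 32.2% and 33.8%, under each of its alternatives. A combination not counted among the 55, equal length by fold enrichment with ranks by fold enrichment, gave 35.1%, above that interval. Each of the other 4 shares left its interval under at least 1 alternative. With both lists at the larger of their lowest −log10 q, 384 regions were called only at 3 passages and 3689 in both. Nanog of 3 passages was then at 96.1% of 3 passage-only regions, Nanog of serum at 79.2% of serum-only regions and H3K4me3 of serum at 15.8% of these. At equal length by −log10 q, 3054 regions were called only in serum, with Nanog of serum at 83.9% and H3K4me3 of serum at 16.9%. At equal length by fold enrichment, 3147 regions were called only at 3 passages, with H3K4me3 of 3 passages at 8.61%, and 3155 only in serum, with Nanog of serum at 84.9% and H3K4me3 of serum at 10.5%. With the Nanog and H3K4me3 lists at equal length, Nanog of 3 passages was at 83.3% of 3 passage-only regions. With a Nanog summit required within 250 bp of the Sox2 summit, the Nanog shares were 85.0% at 3 passage-only and 73.1% at serum-only regions. Shorter lists drop the weakest peaks by construction, and the cause of the other shifts was not tested. Leaving out a replicate was not possible, because the lists give no values per replicate. No paired analysis was possible because each condition has 1 list. An absent peak shows only that the region did not enter that list.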

Other observations

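By chromosome, the share of regions called only at 3 passages ran from 11.7% on chromosome 14 to 16.6% on chromosome 18, and the share called only in serum from 38.1% on chromosome 6 to 45.4% on chromosome 5. Of the shared regions, 21.0% on chromosome 14 rose by over 25 points and 7.87% fell by as much, against 16.6% and 16.2% over chromosomes 1 to 19. Chromosome 6 had 19.1% and 10.7%. These chromosomes were picked after their values were seen, and no test was made.

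Both second regions chosen for H3K4me3 were not described above. On chromosome 9, the region from 35112599 to 35113299 was called for Sox2 at 3 passages and not in serum, with a fold of 15.2. Its −log10 q of 220.6 was the highest of all regions called only at 3 passages. The region also held peaks at 24 h for Sox2 (fold 10.5) and Nanog (5.48), and Oct4 peaks at 24 h (8.35) and in serum (7.08). Its H3K4me3 fold was 21.6 at 3 passages and 4.88 in serum, and its Nanog fold was 4.15 at 3 passages, with no Nanog peak in serum. On the same chromosome, that from 118516559 to 118517322 was called for Sox2 only in serum, with a fold of 25.1. It held H3K4me3 in serum, with a fold of 11.0, and none at 3 passages, and Nanog with a fold of 21.2 at 3 passages and 53.3 in serum.

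Outside chromosomes 1 to 19, the 3 passage Sox2 list held 269 peaks on X, 0 on Y and 19 on unplaced contigs, and the serum Sox2 list held 404, 12 and 3. The labels do not tell whether the reads of both lists met one set of contigs.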
